A study of Rattus norvegicus with 4 samples.

Results

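The genes described here are the MiT/TFE transcription factor genes Mitf, Tfeb and Tfe3 together with 7 genes for proteins of the lysosomal membrane and of lysosomal cholesterol handling (Lamp1, Lamp2, Mcoln1, Npc1, Npc2, Cd63 and Scarb2). They were chosen by name, and every non-control array probe whose accession belongs to 1 of these rat genes was taken. All 10 genes had a probe. They make up 10 of the 16579 named genes measured on the arrays and 13 of the 45598 probes. RNA came from NR8383, a rat alveolar macrophage line from lung lavage that grows partly attached and partly floating, at passage 20. All 4 samples (replicates 1 to 4, biological replicates per the series' design text) carried the same treatment, the titanium dioxide material NRCWE001 at 3 cm2 of surface per cm2 for 4 h. Cells without particles, which the design also lists, were not analysed here. The values therefore describe exposed cells and how far the 4 samples differed, not a response to the particles. Each sample had its own one-colour array, so sample and array cannot be told apart.

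MiT/TFE factors are basic helix-loop-helix leucine zipper proteins that bind DNA as pairs. When the kinase complex mTORC1 on the lysosome is active, it phosphorylates TFEB, TFE3 and some MITF isoforms and keeps them in the cytoplasm. When lysosomes are starved or damaged, the factors enter the nucleus and bind E-boxes with the core CACGTG (the CLEAR element), many of them at genes for lysosomal proteins. In macrophages, lysosomes receive ingested particles, and proteins of their limiting membrane form the barrier between the particles and the cytosol. Much of this control acts on the location of the factors, which a transcript array does not measure.

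All 10 genes were transcribed at a detectable level on every array. Each had at least 1 probe that the scanner software flagged as well above background on all 4 arrays, against 45.7% of all genes with a symbol. Of the 13 probes, 12 were flagged on all 4 arrays, against 31.8% of all probes. The remaining probe was the dimmer of 2 for Tfe3. None of the 22 spots behind these probes was saturated. Levels below are the log2 of the processed signal minus the 75th percentile of the same array's non-control spots, so a level of 0 is that percentile. That percentile was 347 to 554 intensity units, and the median local background was 36 to 41 units. Each array had 15314 to 16708 probes flagged as well above background. Probes bind with different strength, so levels of different genes are not ranked. The line carried its macrophage identity: all 9 macrophage markers looked up (Cd68, Csf1r, Mrc1, Lyz2, Itgam, Spi1, Cd14, Tyrobp and Fcer1g) were well above background on all 4 arrays.

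**Figure D1:**
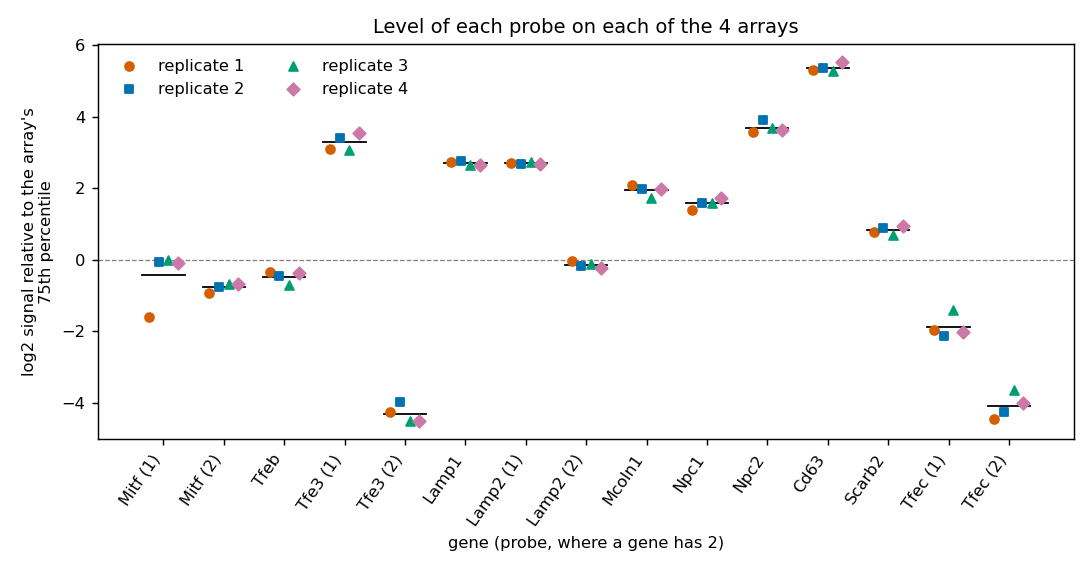
Level of each probe of the 10 genes and of Tfec on each array, as log2 signal relative to that array's 75th percentile (y axis). Points are the 4 replicates and bars their means. In this and the other plots, (1) and (2) mark Mitf A_64_P078597 and A_64_P056618, Tfe3 A_64_P148673 and A_44_P166749, Lamp2 A_44_P1086734 and A_44_P196291, and Tfec A_44_P1104538 and A_44_P334922. The points of most probes lie close together, while Mitf (1) has replicate 1 at -1.59 and the other replicates between -0.08 and 0.00. Tfe3 (2) was well above background on 2 arrays only.

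Of the factor genes, Tfe3, which codes for the most widely expressed member of the family, had a bright probe. Its probe A_64_P148673 lay at 3.10, 3.41, 3.07 and 3.55 on replicates 1 to 4, a mean of 3.28 ± 0.24 (SD, n = 4). Replicates 2 and 4 were the high ones and replicates 1 and 3 the low ones, 1.40-fold apart at the extremes. The other Tfe3 probe, A_44_P166749, has the same accession but was near background, with a median spot signal of 57.0 to 71.0 units over local backgrounds of 34.0 to 39.5. It was flagged as well above background on replicates 2 and 3 only, so it gives no level for the gene on every array.

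Tfeb, the member most studied as a regulator of lysosome formation, was measured by 1 probe. It lay at -0.36, -0.47, -0.71 and -0.38, a mean of -0.48 ± 0.16 (SD, n = 4). Replicate 3 was the low sample, and the extremes were 1.28-fold apart. The raw spot was 9.19 to 11.3 times its local background, so the signal was moderate but clearly separate from background on each array.

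Tfec, the remaining gene of the family and one known for its restriction to macrophage-type cells, was added for comparison and is not 1 of the 10 genes. Its probe A_44_P1104538 lay at -1.96, -2.15, -1.42 and -2.01, and its probe A_44_P334922 at -4.45, -4.26, -3.63 and -4.01. Both were well above background on all 4 arrays and both were highest on replicate 3, at 0.47 and 0.46 above their own means. Neither varied more than probes of like level (limma, adjusted p = 0.934 and 0.993).

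Mitf, best known as the master regulator of pigment cells and also active in osteoclasts and mast cells, had 2 probes that differed in how far they varied. Probe A_64_P056618 lay at -0.92, -0.75, -0.68 and -0.68, a mean of -0.76 ± 0.12 (SD, n = 4). Replicate 1 was lowest, and the 4 samples lay within a fold of 1.19. Probe A_64_P078597 lay at -1.59 on replicate 1 and at -0.06, 0.00 and -0.08 on replicates 2, 3 and 4, a mean of -0.43 ± 0.77. Its low sample was again replicate 1, but by a fold of 3.02 against replicate 3, while the other samples were almost identical. Within each array the log2 difference between the probes (A_64_P078597 minus A_64_P056618) was 0.69, 0.68 and 0.60 on replicates 2, 3 and 4 and -0.67 on replicate 1. Both probes were lowest on replicate 1 in this scaling, but for A_64_P056618 the difference was small. With normexp background correction on the raw median signals, its 4 samples spanned a log2 range of 0.09, with an SD of 0.04. The spread of A_64_P056618 was not called (limma, adjusted p = 0.993). Both probes carry the same accession, and their sequences were not used here. Whether they read different Mitf isoforms was not tested.

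Of the 12 probes detected on all 4 arrays, the Mitf probe A_64_P078597 was the 1 that varied between arrays by more than probes of like level. The test was an F test of each probe's variance against a prior variance fitted with limma. Results marked limma are from this test. Over 14518 detected probes it called 63 (0.434%) at an adjusted p under 0.05. For this Mitf probe the SD of 0.77 stood against a prior SD of 0.18, the typical spread limma fits to probes of that level (F test, adjusted p = 0.00276). Mitf was part of the gene choice with this spread already known, so the p describes it and gives no independent support. The call rested on replicate 1: without that array the SD was 0.04 and the adjusted p 0.996. Without replicate 3 the SD was 0.88 but the adjusted p 0.0653. It was also lost when arrays were scaled to the 75th percentile of detected probes (adjusted p = 0.68), after quantile normalization (0.389) and with a prior that had no trend on level (0.842), while the SD stayed between 0.77 and 0.79 in these settings.

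**Figure D2:**
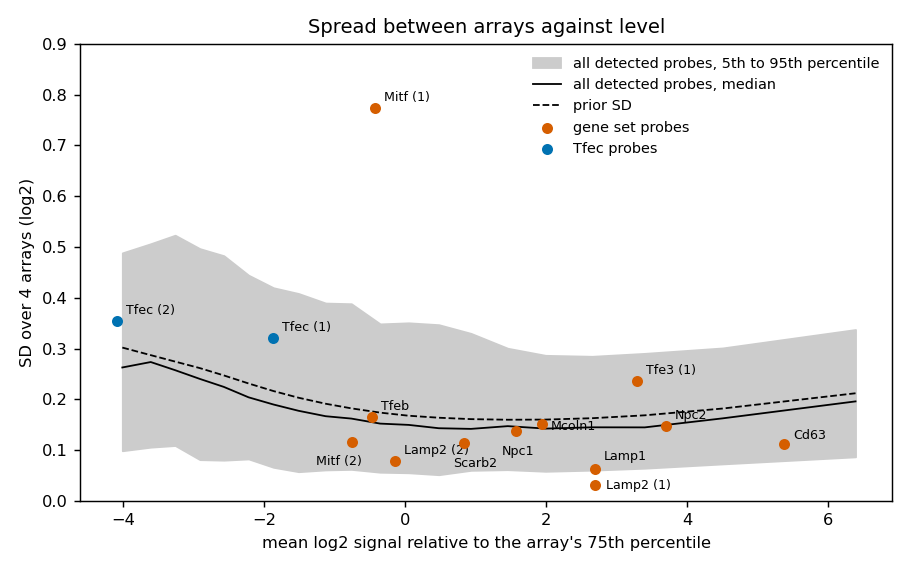
SD over the 4 arrays (y axis, log2) against mean level (x axis) for the probes detected on all arrays. The grey band holds the 5th to 95th percentile of all 14518 detected probes in 20 bins of level, with their median (solid) and the prior SD (dashed). Mitf (1) lies at 0.77, far above the band, and Lamp2 (1) at 0.03, below it.

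The low value of this Mitf probe was already present in the raw image. Its spot had a median signal of 155 units over a local background of 34.0 on replicate 1. On replicates 2, 3 and 4 it had 381, 591 and 451 units over backgrounds of 37.5, 39.0 and 40.0. The software flagged the spot neither as an outlier nor as saturated on any array. The spot lies at row 158 and column 34 of the array, and that of the other Mitf probe at row 181 and column 132. Neighbours of a spot were those within 3 rows and 3 columns whose probe was detected on all 4 arrays, with no outlier flag on any. A probe of 1 spot that fell to background on replicate 1 would thus be left out. The 20 neighbours of the variable Mitf spot had a median deviation of 0.19 on replicate 1, ranging from -0.55 to 0.67. Among these 20, none was as low as the Mitf spot at -1.16. Less the median of its neighbours on each array, the SD of the probe was 0.89. The 16 neighbours of the other Mitf probe had a median deviation of 0.00 on replicate 1, ranging from -0.13 to 0.25. That probe, at a deviation of -0.17, was also below all 16 of them. Such a place was not particular to Mitf. The Tfec probe A_44_P334922 was below all 19 of its neighbours on replicates 1 and 2, though not on replicates 3 and 4.

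**Figure D3:**
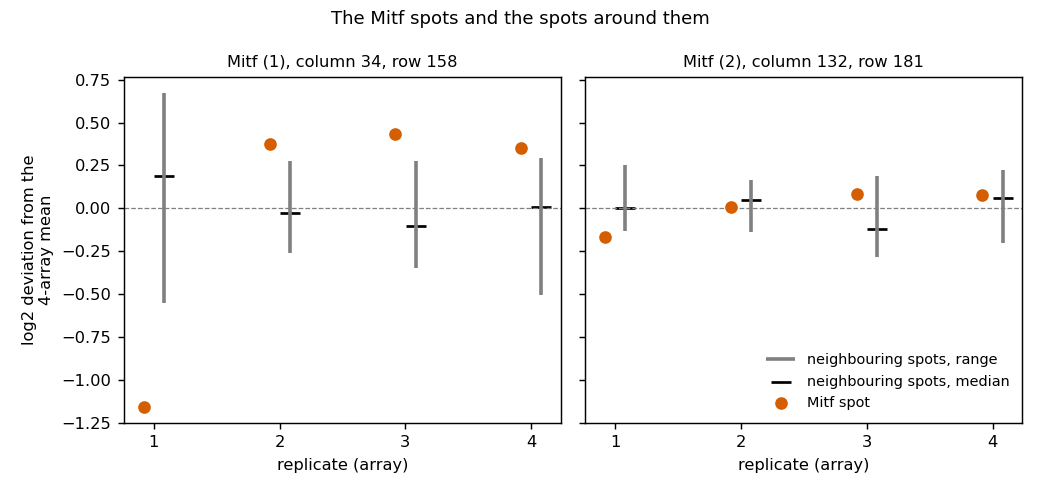
Deviation of each Mitf spot from its own mean over the 4 arrays (orange, y axis, log2) and of the detected spots within 3 rows and 3 columns (grey range, black median), by replicate. On replicate 1, Mitf (1) lies at -1.16, below all 20 neighbours, and on the other arrays it lies above all of them, since deviations are taken from a mean that replicate 1 pulls down.

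An earlier look at these arrays had found low values in 1 part of the replicate 1 array, taken here as columns 1 to 72. The variable Mitf spot, at column 34, lies in that part, and the spot of the other Mitf probe, at column 132, lies outside it. Of the spots of the 10 genes, 7 lie in that part and 15 beyond it. Position on the array can also be followed with Cd63, whose 1 probe is printed on 10 spots. On replicate 1 the background-subtracted median signals of these spots had an SD of 0.40 (log2), against 0.08, 0.12 and 0.08 on replicates 2, 3 and 4, where replicates 3 and 4 each lack 1 outlier spot. In the processed signal, which the software had detrended, the SDs were 0.12, 0.05, 0.06 and 0.05. With the outlier spots kept, replicates 3 and 4 had SDs of 0.18 and 0.19 in the raw and 0.10 and 0.09 in the processed signal. The spot lowest in processed signal on replicate 1, at column 40, is the Cd63 spot nearest to the variable Mitf spot, 4 rows and 6 columns away. Its log2 processed signal differed from the mean of the Cd63 spots on that array by -0.28, and from its own 4-array mean by -0.21. A Tfec spot lies 3 rows and 7 columns from the Mitf spot, and on replicate 1 it differed from its own 4-array mean by -0.08. Both differences from a 4-array mean were smaller in size than the -1.16 of the Mitf spot. The part of array position in the Mitf value was not tested beyond these values.

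**Figure D4:**
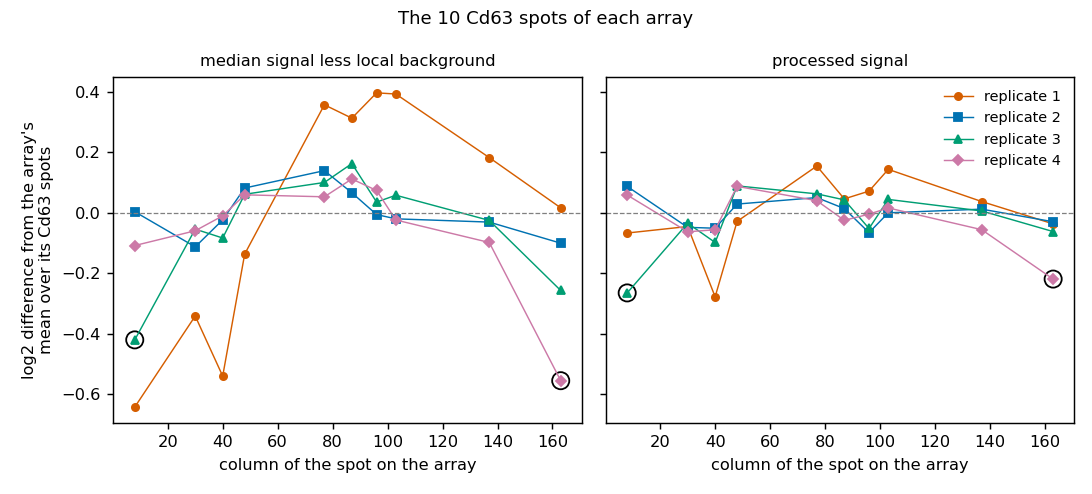
Log2 difference of each of the 10 Cd63 spots from the mean of its array (y axis) against the column of the spot (x axis), for the raw signal less local background (left) and the processed signal (right). Circled spots were flagged as outliers and left out. On replicate 1 the raw spots at columns 8, 30 and 40 lie at -0.64, -0.34 and -0.54, and in the processed signal at -0.07, -0.05 and -0.28.

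The 3 genes whose array pattern was nearest to the variable Mitf probe were Cdkn1b, a cell cycle inhibitor gene, Lsm8, a gene of RNA splicing, and Usp4, a deubiquitinase gene. Nearness was the Euclidean distance between the deviations on the 4 arrays, taken over 9234 other detected probes with a symbol, and it was 0.07, 0.09 and 0.09. Cdkn1b lay at -0.76 on replicate 1 and between 0.77 and 0.93 on the others. Lsm8 and Usp4 lay at -0.55 and -0.75 on replicate 1, and likewise higher on every other array (means of all 4 arrays 0.64 and 0.39). Each was printed on 1 spot, at columns 9, 1 and 26, so all lie in columns 1 to 72, as the variable Mitf spot does. Of the other 9 genes, none came nearer than 1.15 (Npc1). On replicate 1 the Tfe3 probe A_44_P166749, at column 7, deviated by 0.06 and Npc2, at column 3, by -0.13. That Tfe3 spot was not well above background on replicate 1 (57 units over 34), so it could hardly show a drop. The Npc2 value is from detrended signal, 1.60 times the background-subtracted median signal. On replicate 1 the 15 detected neighbours of the Npc2 spot deviated by -1.18 to 0.54.

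Lamp1 and Lamp2 code for the most abundant glycoproteins of the lysosomal membrane, and their probes had the lowest SDs of the 12 in the scaling used here. Lamp1 lay at 2.74, 2.75, 2.64 and 2.64 on replicates 1 to 4. The 4 samples thus lay within a fold of 1.09, with an SD of 0.06. Lamp2, which also serves chaperone-mediated autophagy through its LAMP2A isoform, had 2 probes of the same accession. Probe A_44_P1086734 lay at 2.70, 2.68, 2.74 and 2.67, with an SD of 0.03. Probe A_44_P196291 lay at -0.05, -0.18, -0.12 and -0.23, with an SD of 0.08. The log2 difference between the Lamp2 probes was 2.75, 2.86, 2.86 and 2.89, an SD of 0.06, against an SD of 0.66 for the difference between the Mitf probes. The dimmer one was still 9.86 to 13.8 times its local background. The low SDs depended on the processing. With arrays scaled to the median of detected probes, Lamp1 had an SD of 0.06 and the Lamp2 probes 0.04 and 0.08, still the lowest of the 12. With arrays scaled to the 75th percentile of detected probes, Lamp1 had 0.07 and the Lamp2 probes 0.09 and 0.11, beside 0.07 for Scarb2 and Cd63. With normexp, Lamp1 had 0.11 and the Lamp2 probes 0.09 and 0.10, above Npc1 (0.07) and the Mitf probe A_64_P056618 (0.04). After quantile normalization the Lamp2 probe A_44_P1086734 had 0.11, and less its neighbouring spots 0.10.

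The promoter of Lamp1 is shown because it holds more copies of the factors' core motif than any other promoter window in RefSeq's rat set. It is the stretch of 250 bases before the Lamp1 start, at chr16:83075064-83075313 (minus strand, RefSeq, build GRCr8), with CACGTG in capitals:

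Lamp1: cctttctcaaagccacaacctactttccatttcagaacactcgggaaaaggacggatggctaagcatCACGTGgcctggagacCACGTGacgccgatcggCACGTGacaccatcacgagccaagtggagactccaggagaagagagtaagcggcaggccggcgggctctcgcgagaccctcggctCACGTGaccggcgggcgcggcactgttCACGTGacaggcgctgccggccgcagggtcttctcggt

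The 5 copies begin 183, 167, 150, 65 and 38 bases before the start. Of 33469 RefSeq promoter windows of 300 bases (250 before to 50 after a start), 2148 (6.42%) hold CACGTG, 9 hold 4 or more copies and 1, that of Lamp1, holds 5. The motif reads the same on both strands. The longer form TCACGTGA, which contains it, is present in 0.777% of windows and in those of 2 of the 10 genes. In Lamp1 it occurs at the copies 65 and 38 bases before the start, and in Mcoln1 it begins 4 bases into the transcript. All 10 genes had a window, and CACGTG was found in those of Lamp1, Mcoln1 and Cd63. The related core CATGTG, searched on both strands, was found in those of Cd63 and Scarb2, against 14.0% of all windows. The windows of Mitf, Tfeb, Tfe3, Lamp2, Npc1 and Npc2 held neither. Binding was not measured here.

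The 2 copies in the Mcoln1 window and the 1 in Cd63 are shown with 12 bases on each side, in the gene's direction, at chr12:6358224-6358253, chr12:6358250-6358279 and chr7:1921942-1921971 (all plus strand, GRCr8, RefSeq), with CACGTG in capitals:

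Mcoln1, 22 bases before the start: cgtcaagcttgtCACGTGttcgacccaggc

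Mcoln1, 5 bases into the transcript: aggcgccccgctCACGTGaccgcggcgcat

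Cd63, 190 bases before the start: ccgggcagcggcCACGTGgcctgtccaggc

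Mcoln1 codes for TRPML1, the lysosomal calcium channel whose opening activates calcineurin and, through it, TFEB. It lay at 2.08, 1.98, 1.72 and 1.97, a mean of 1.93 ± 0.15 (SD, n = 4). Replicate 3 was the low sample, as it was for Tfeb and Tfe3. Scarb2, the gene of LIMP-2, which carries glucocerebrosidase to the lysosome, lay at 0.77, 0.89, 0.70 and 0.95, a mean of 0.83 ± 0.11. Cd63, a tetraspanin gene of late endosomes, lysosomes and exosomes, lay at 5.32, 5.36, 5.28 and 5.53, a mean of 5.37 ± 0.11 over 10 spots on replicates 1 and 2 and 9 on replicates 3 and 4, where 1 spot each was left out as an outlier. Its samples differed by a fold of 1.19 at most, with replicate 4 high and replicate 3 low in both Scarb2 and Cd63.

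Npc1 and Npc2 code for the proteins that pass cholesterol out of the lysosome, NPC2 as the soluble carrier in the lumen and NPC1 in the membrane. Npc1 lay at 1.40, 1.57, 1.60 and 1.74, a mean of 1.58 ± 0.14 (SD, n = 4). Replicate 1 was its low sample and replicate 4 its high one. Npc2 lay at 3.57, 3.90, 3.69 and 3.62, a mean of 3.69 ± 0.15, with replicate 2 high. The Npc2 spot lies at column 3 of the array, where the processed signal of replicate 1 was 1.60 times the background-subtracted median signal, against 1.07 to 1.16 times on the other arrays. With normexp background correction on the raw median signals, which leaves out this detrending, the SD of Npc2 rose from 0.15 to 0.36 (adjusted p = 0.142).

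Most of the 12 detected probes differed little between samples. Their SDs ran from 0.03 to 0.77 with a median of 0.13, and the median over all detected probes was 0.18. That median is raised by dim probes, which vary more. Against the median of probes of like level, which was 0.14 to 0.16 for these probes, 7 of the 12 lay below and 5 above. Those above were the Mitf probe A_64_P078597, the bright Tfe3 probe, Tfeb, Mcoln1 and Npc2; Npc2 had 0.146 against 0.145. The lowest adjusted p among the 11 others was 0.963, for Tfe3 (limma, unadjusted p = 0.146). A probe without a call is not shown to be stable.

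No array held the set together as high or low. Replicate 3 gave the lowest value for 6 of the 12 probes, replicate 1 for 4, replicate 4 for 2 and replicate 2 for 0. Over all detected probes, replicate 3 was lowest for 43.0%, replicate 1 for 21.2%, replicate 4 for 18.8% and replicate 2 for 17.0%. The median deviation of the 12 probes was -0.06, 0.03, -0.03 and 0.09 on replicates 1 to 4, and that of all detected probes 0.01, 0.03, -0.07 and 0.04.

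**Figure D5:**
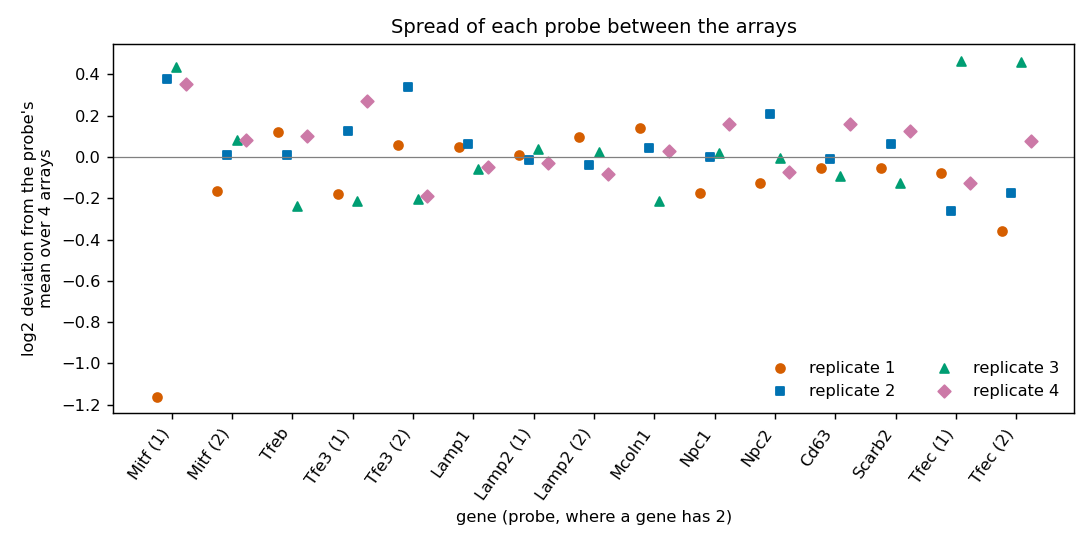
Log2 deviation of each probe from its own mean over the 4 arrays (y axis), by replicate. Apart from replicate 1 of Mitf (1) at -1.16, the deviations of the 10 genes stay between -0.24 and 0.43. Tfec (1) and (2) have replicate 3 highest, at 0.47 and 0.46.

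The list of genes that control MiT/TFE factors holds mTORC1 and the Rag and Ragulator genes, which keep the factors in the cytoplasm, and also calcineurin genes and the mTORC1 inhibitors Tsc1 and Tsc2, which act the other way. Of 21 measured genes of this list (of 22), 20 were well above background on all 4 arrays, against 45.7% of all genes. Mtor, the kinase gene itself, lay at -2.95 ± 0.13 (SD, n = 4), Rptor, the gene of its partner Raptor, at 2.60 ± 0.13, and Mlst8, coding for the third subunit of the complex, at 0.14 ± 0.11. The exception was Fnip1, a partner gene of folliculin, with 0 arrays well above background, while Flcn and Fnip2 were detected. Only the 20 detected genes were tested for variance. None of the 20 was called variable by limma (0 genes, lowest adjusted p = 0.701), and 1, Flcn, had an unadjusted p under 0.05. Over all detected probes 0.434% were called.

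Of 21 measured CLEAR targets, genes known to be bound or raised by TFEB (the list had 22), 18 were well above background on all 4 arrays. The share over all genes was 45.7%. Sqstm1, the autophagy receptor p62, lay at 5.84 ± 0.33 (SD, n = 4), Gpnmb, a membrane glycoprotein gene that marks lipid-loaded and lysosome-stressed macrophages, at 7.12 ± 0.09, and Ctsd, the cathepsin D gene, at 7.71 ± 0.24. Uvrag, Wipi1 and Ppargc1a were detected on 0 arrays. Among 31 measured genes of other lysosomal membrane proteins (of 34), 28 were detected on all 4 arrays, beside the same 45.7% of all genes. Laptm4a lay at 1.74 ± 0.26, Laptm4b at -1.07 ± 0.11 and Lamp3, which belongs to dendritic cells and lung epithelium, was not well above background, nor were the channel gene Mcoln3 and the amino acid sensor gene Slc38a9. Only genes detected on all 4 arrays were tested for variance. In neither list was a gene called variable (0 of 18 and 0 of 28, limma, lowest adjusted p = 0.809 in both, and 0 genes with an unadjusted p under 0.05). The share called over all detected probes was 0.434%. The median SD of detected genes was 0.13 for the regulators, 0.13 for the CLEAR targets and 0.14 for the membrane genes, beside 0.18 for all detected probes. The lists take the brightest probe of each gene, and detected probes at levels from 0.05 to 3.40 had median SDs of 0.14 to 0.15.

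For cell types in which Mitf is best known, few markers gave a signal. Of all genes, 45.7% had a probe well above background on all 4 arrays. Of 3 measured melanocyte markers, Tyr and Tyrp1 were not detected and Mlana lay at -3.19 ± 0.52 (SD, n = 4) on all 4 arrays. Of 4 measured osteoclast markers, Acp5 lay at -3.61 ± 0.38 on all 4 arrays, Oscar was detected on 3, and Ctsk and Calcr on 0. Of 6 mast cell markers Hdc was detected on 3 arrays and the other 5 (Kit, Ms4a2, Cpa3, Tpsb2 and Mcpt1) on 0. Of the lung epithelium markers Krt18 was detected on 1 array and the other 5 of 6 on 0. Of the lymphocyte markers Cd3d was detected on 3 arrays and Cd3e on 0, and of 5 fibroblast and endothelium markers Vwf (2.79 ± 0.23) and Cdh5 (-4.11 ± 0.30) were detected on all 4. Mlana lay at -3.93 on replicate 1 and at -2.77, -3.14 and -2.90 on the others, and Acp5 at -3.94, -3.89, -3.47 and -3.13. Replicate 1 was the lowest for both, as for 21.2% of all detected probes, and the part of other cells in the Mitf values was not tested.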

How the data were processed

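Per the file headers, the deposited intensity values came from the Agilent software Feature Extraction (version 11.0.1.1), which subtracted background and detrended each array and did no scaling across arrays. Median spot and background intensities and 0/1 flags came from the same files.

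The 75th percentile of non-control spots was subtracted from log2 signals with the 634 to 669 outlier spots of each array removed, and spots of 1 probe were averaged. Probes were named through accessions without versions in RefSeq's GRCr8 gene table (21109 of 45598). The array grid names another build, so gene coordinates are not given. A probe was detected where over 0.5 of its spots were well above background. In gene lists the brightest probe gave the level.

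Variance over the 4 arrays was divided by a prior variance (trend on level, robust, 20.9 prior degrees of freedom; limma 3.58.1, R 4.3.3) and the upper F tail adjusted by Benjamini-Hochberg, with calls at 0.05. Precision is limited by having 4 arrays. The script was also tested on data simulated with the number of probes and the prior degrees of freedom of this fit. It recovered 17.9 prior degrees of freedom against the 20.9 used. With the SD of some probes raised 2, 3, 4 and 6 times, it called 16%, 30%, 60% and 84% of them. Of 14318 unchanged probes it called 3. Many moderate differences in spread would thus be missed.

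Genes, lists and tests were chosen with earlier results of these data known. Named were all 10 genes by probe, Tfec, the first 3 measured genes of each list and any called, and the 3 patterns nearest to the most variable probe. Others named in lists were chosen after their values were seen. Alternatives were other scalings, background correction, priors and filters, flagged spots kept and each array left out.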

Additional observations from a re-analysis of the deposited data

Results flagged for a closer look

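The Mitf probe A_64_P078597 was the 1 of the 12 detected probes with a sample far from the others. Replicate 1 was separated from the nearest sample by 0.948 of the whole range, above Dixon's 95% critical value for 4 samples. Over all 14518 detected probes 803 passed the same limit (5.53%), and chance alone passes about 5% of groups.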

How the results depend on the processing

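All 10 genes stayed detected on all 4 arrays with the more lenient flag for positive and significant signal, with flagged spots kept and without any 1 replicate. The count of these genes' probes called variable (1) fell to 0 with arrays scaled on detected probes alone (their 75th percentile), with quantile normalization and with a prior without trend (limma, in each case with 1 unadjusted p under 0.05), and ranged from 0 to 1 over the fits that left out 1 replicate. In all, the Mitf probe was called in 8 of 13 alternatives, with adjusted p from 6.84e-09 to 0.996. The other probes of the 10 genes were called in 0 of 141 tests under alternatives by limma (1 unadjusted p under 0.05).

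Over all probes, 63 were called. With arrays scaled on detected probes alone, the number was 1 with their 75th percentile and 44 with their median. It was 1 after quantile normalization, 1 with a prior without trend and 16 with a prior that was not robust. It was 38 with flagged spots kept, 39 with 1 probe per gene, 217 without a filter on dim probes and 389 with normexp on median signals. It ranged from 15 to 149 when 1 replicate was left out. The causes of these differences were not tested. Levels hold for the scale chosen: another one shifted the median of all detected probes by -1.72 to 2.63. Finding the genes through a gene name column could not be run, since the files give probes and accessions. No paired analysis was possible because there was 1 group.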
